A study of Mus musculus with 7 samples.

Results

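The Mirg miRNAs are the microRNAs of the miR-379 to miR-410 cluster in the imprinted Dlk1-Dio3 locus of the mouse. They were chosen by name: every row of the count tables whose name without its arm ending equals 1 of 37 listed hairpins. In the tables the names carry a prefix for the mouse, as in mmu-miR-379 (10101 reads over both arms and all libraries), mmu-miR-376b (7448 reads) and mmu-miR-411 (5502 reads). This gave 74 of the 1966 mature miRNA rows, 2 arms for each of the 37 hairpins. Small RNAs had been sequenced from hepatocytes of mouse liver, isolated by collagenase perfusion and low-speed spins. The 7 libraries were 3 of genotype WT and 4 of genotype ALAS12-KO, a mutant of Alas1 and Alas2, which encode the enzymes of the first step of heme synthesis. Their comparison asks whether small RNA levels depend on ALAS. Both genotypes carry TMX as their treatment, an abbreviation left unexplained. No label gives an age, strain or Cre driver. The labels also do not tell whether each replicate is its own animal, and p-values then reflect only library-to-library spread, part of which may be technical.

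A microRNA is cut from a hairpin in a longer primary transcript, and 1 of its 2 arms usually becomes the guide that an Argonaute protein uses to silence messages that pair with the seed, bases 2 to 8. The Dlk1-Dio3 locus is imprinted. Its noncoding transcripts Meg3, Rian and Mirg and the miRNAs they hold come from the maternal chromosome, while Dlk1, Rtl1 and Dio3 are expressed from the paternal one. The cluster is best known from embryo, placenta and brain and is low in most adult tissues. In newborn mice it has been tied to the metabolic adaptation of the liver, and miR-379 in adult hepatocytes to lipid export under glucocorticoids.

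The mature sequences below are those that the results turn on, from RefSeq on GRCm38.p6, written 5′ to 3′ with the seed in capitals. RefSeq held a mature sequence for 70 of the 74 rows, all but miR-376c-3p, miR-487b-3p, miR-539-3p and miR-485-5p. The first 12 are the most abundant Mirg miRNAs of these libraries in falling order, and of the other 6 miR-381-3p, miR-376a-3p and miR-376c-5p are close in sequence to one of these, miR-379-3p and miR-411-3p share a seed with each other, and miR-410-3p is the namesake of the cluster's far end.
miR-379-5p: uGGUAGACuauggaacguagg
miR-376b-3p: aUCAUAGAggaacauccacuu
miR-411-5p: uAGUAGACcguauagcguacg
miR-541-5p: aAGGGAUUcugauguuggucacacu
miR-154-5p: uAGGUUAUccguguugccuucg
miR-300-3p: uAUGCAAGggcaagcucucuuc
miR-382-5p: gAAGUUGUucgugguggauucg
miR-299a-5p: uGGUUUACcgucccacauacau
miR-376b-5p: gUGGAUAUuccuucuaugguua
miR-299a-3p: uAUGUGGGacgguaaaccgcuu
miR-134-5p: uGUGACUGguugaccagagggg
miR-409-3p: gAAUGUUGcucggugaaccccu
miR-381-3p: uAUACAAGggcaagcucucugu
miR-376a-3p: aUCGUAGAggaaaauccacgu
miR-376c-5p: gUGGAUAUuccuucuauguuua
miR-379-3p: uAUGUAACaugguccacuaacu
miR-411-3p: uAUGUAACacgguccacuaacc
miR-410-3p: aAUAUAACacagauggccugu

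Several of these sequences are alike. miR-379-3p and miR-411-3p share the seed AUGUAAC, and miR-376b-5p and miR-376c-5p share UGGAUAU. miR-376b-5p and miR-376c-5p differ at 1 base along their whole length (G19U, the first named having G at base 19 counted from the 5′ end). miR-376b-3p and miR-376a-3p differ at 3 bases, of which A4G lies in the seed, and miR-381-3p and miR-300-3p also differ at 3 bases, with A4G in the seed. Between miR-379-5p and miR-411-5p 7 bases differ, of which G2A lies in the seed. Outside the list above, miR-299b-3p equals the first 18 bases of miR-299a-3p, and miR-299b-5p equals miR-299a-5p without its first base. Each miR-299b arm was counted at 3 reads over the 7 libraries. The entry for reads aligning to several places was 0 in all libraries. How such reads were handled therefore cannot be read from the files. Values of the miR-376 members are uncertain one by one, and so is the split between miR-299a and miR-299b. Transcripts of the miR-376 hairpins are also known targets of A-to-I editing, which the count tables do not show.

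The hairpins lie on chromosome 12, from 109709060 (the start of Mir379) to 109743795 (the end of Mir410), a stretch of 34.7 kb on GRCm38. Of the 35 with a hairpin entry, 34 are on the plus strand. Mir299b lies on the minus strand inside Mir299a, and whether the counting used strand is not given. In GENCODE M21 the noncoding gene Mirg spans 109729764 to 109749460 and covers 12 of the 35 hairpins, 8 of them over an exon and 4 in introns; the other 23, among them Mir379, Mir411 and Mir376b, lie upstream of the annotated gene, outside any other gene on their strand. The name Mirg is therefore used here for the cluster, not for the annotated gene.

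The summed miRNA count was 7719180 to 21962191 reads a library, so 1 CPM (counts scaled to a library of 1000000 miRNA reads) stood for 7.72 to 22.0 reads. The Mirg miRNAs together had 2181 to 14959 reads a library. Hepatocyte miRNAs took 63.4% to 71.8% of miRNA reads in every library, and miR-122-5p, the dominant miRNA of hepatocytes, was the most abundant of them. Alas1 and Alas2 messages are not in these tables, which leaves the genotype labels unchecked. ALAS12-KO replicate 1 stood apart from the rest: it had the lowest summed level of endothelial, leukocyte, mesenchymal, bile duct and red cell markers, and the highest share of miR-122-5p, so results that rest on it are given with and without it.

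As a whole the cluster was scarce in these hepatocytes, and its level was lower in ALAS12-KO than in WT. Scaled to the library totals, the summed Mirg miRNAs stood at 457, 681 and 444 CPM in WT replicates 1 to 3 and at 329, 216, 184 and 304 CPM in ALAS12-KO replicates 1 to 4. On this scale the groups did not overlap, WT replicate 2 being the highest and ALAS12-KO replicate 3 the lowest. The means were 528 ± 133 CPM (SD, n = 3) and 258 ± 69.1 CPM (SD, n = 4), and their ratio was 2.04, or 1.74 without WT replicate 2. TMM scaling sets 1 factor for each library and takes most miRNAs not to differ between libraries. With it the sums were 422, 671 and 394 CPM in WT and 408, 246, 167 and 296 CPM in ALAS12-KO. The groups then overlapped, since ALAS12-KO replicate 1 came to lie above WT replicate 3. This library was also the one whose level TMM moved most. In bulk libraries fewer cells that express the cluster and less of it per cell cannot be told apart.

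**Figure D1:**
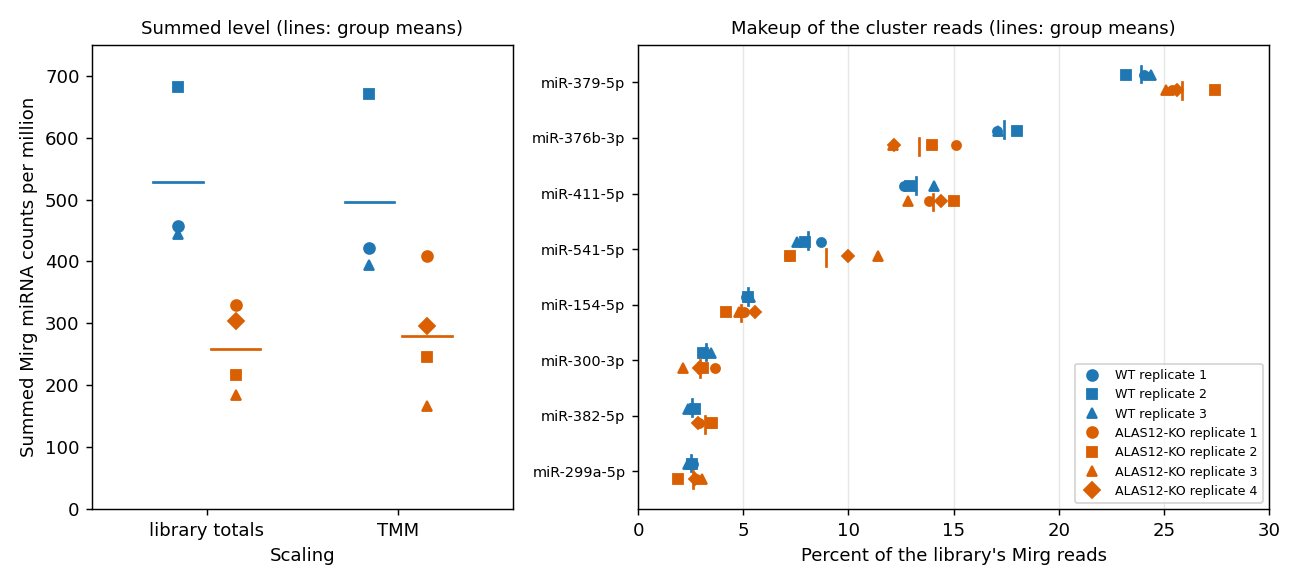
Summed CPM of the 74 Mirg rows by library under both scalings (left), and the percent of each library's Mirg reads taken by the 8 most abundant Mirg miRNAs (right); points are libraries, lines group means. On library totals all ALAS12-KO libraries lie below all WT libraries, with TMM ALAS12-KO replicate 1 (408 CPM) lies above WT replicate 3 (394 CPM), and in the right panel miR-376b-3p is lower in every ALAS12-KO library than in every WT library.

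Of the 74 rows, 30 from 20 hairpins passed the filter on low counts and were tested. Both arms passed for 10 hairpins and 1 arm for another 10. Of these 30, 4 passed the filter's level of 0.624 CPM in fewer than 3 ALAS12-KO libraries and so were kept through WT, and 22 passed it in all 7. Of the remaining 44 rows, 7 had no read in any library, 24 had 1 to 9 reads in all and 13 had 10 to 61. Together the 44 came to 5.30, 7.97 and 6.87 CPM on library totals in WT and to 3.57, 2.77, 3.22 and 3.17 CPM in ALAS12-KO. The groups did not overlap among these scarce rows, with means of 6.71 ± 1.34 CPM (SD, n = 3) and 3.18 ± 0.325 CPM (SD, n = 4). The 30 tested rows held 98.3% to 99.0% of the cluster's reads.

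No single Mirg miRNA passed the adjusted threshold in the comparison of the genotypes. The edgeR quasi-likelihood test with Benjamini-Hochberg adjustment over all 450 tested miRNAs called 0 (0%), and the lowest adjusted p among the Mirg miRNAs was 0.195. The log2 fold change of ALAS12-KO over WT was negative for 30 of the 30 tested Mirg miRNAs, against 44.0% of all tested miRNAs. It ran from −1.33 to −0.17 with a median of −0.83, where the median of all tested miRNAs was 0.06. Unadjusted p was under 0.05 for 11 of the 30, all lower in ALAS12-KO, against 8.44% of all tested miRNAs. The 4 ALAS12-KO libraries lay below the 3 WT libraries for 8 of the 30, against 9.33% of all tested. The 4 members kept through WT (miR-411-3p, miR-300-5p, miR-496a-3p and miR-376c-5p) passed the level in all 3 WT libraries, and keeping them this way favours higher values in WT. Without them, and without the other miRNAs that passed the level in fewer than 3 ALAS12-KO libraries, 26 of 26 were negative (41.7% of the 408 left in all), 11 had an unadjusted p under 0.05 (8.33%) and 7 did not overlap (8.58%), in counts added after the data were seen. These members are thought to be cut from 1 long transcript and varied together between libraries, so their counts are not independent of each other.

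The spread between libraries was shared by nearly all members. WT replicate 2 was the highest of the 7 libraries for 27 of the 30, ALAS12-KO replicate 1 the highest of its group for 25, and the lowest library was ALAS12-KO replicate 3 for 19 and replicate 2 for 11. WT replicate 2 was also the deepest library (21962191 miRNA reads) and had the lowest share of counted reads with no feature. That share was 60.6%, 50.9% and 73.7% in WT replicates 1 to 3. In ALAS12-KO replicates 1 to 4 it was 57.4%, 72.2%, 59.2% and 55.1%. Whether depth or this share bears on the Mirg level was not tested. Without WT replicate 2 the median log2 fold change was −0.50, and 0 of 30 had an unadjusted p under 0.05 (2.84% of all tested, lower in ALAS12-KO). Without ALAS12-KO replicate 1 the median was −1.07, 24 of 30 had an unadjusted p under 0.05 (12.6% of all), and the groups did not overlap for 22 (13.6% of all), while the lowest adjusted p was 0.0832. On library totals 21 of 30 had an unadjusted p under 0.05 (12.4% of all), 21 did not overlap (15.3% of all; this count and those without a library were added after the data were seen), and the median was −1.0, with the median of all tested miRNAs at −0.12. DESeq2 called 22 of the 450 miRNAs (4.89%), 2 of them Mirg miRNAs, both arms of miR-376b.

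**Figure D2:**
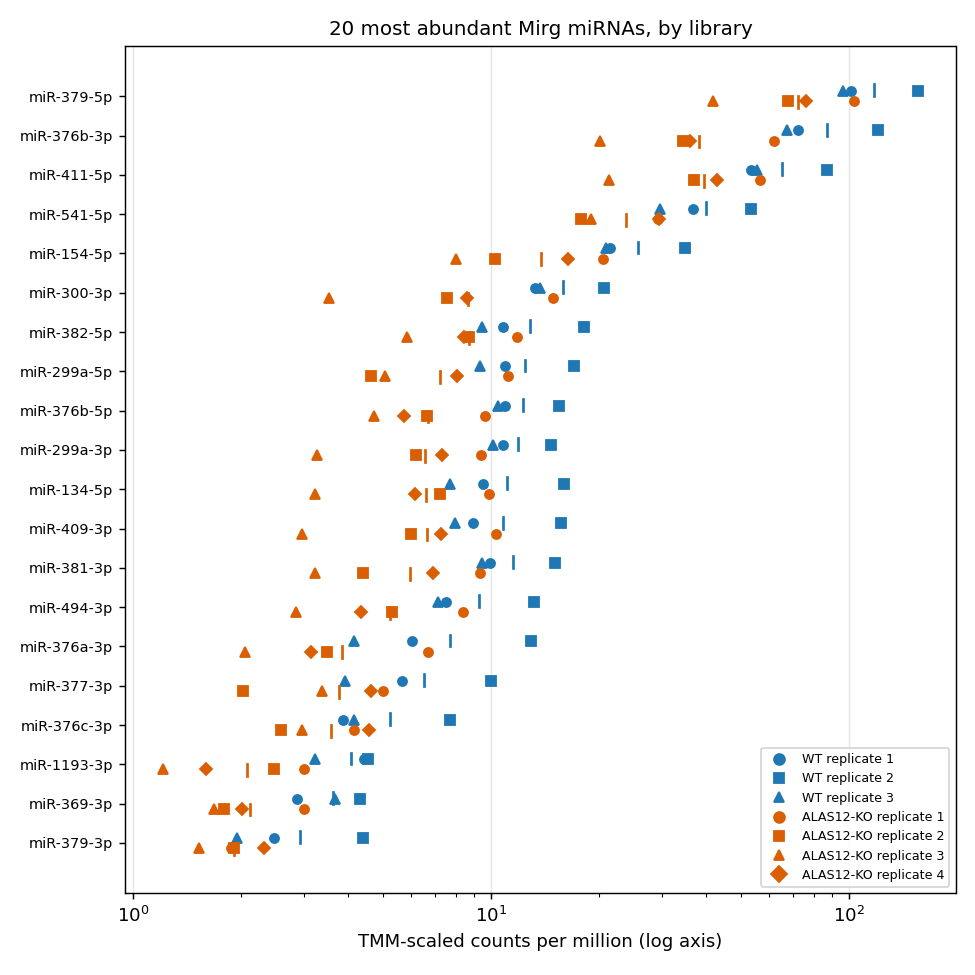
TMM-scaled CPM (log axis) of the 20 most abundant Mirg miRNAs in each library; blue, WT; orange, ALAS12-KO; short vertical lines, group means. In nearly every row WT replicate 2 is the rightmost point and ALAS12-KO replicate 3 or 2 the leftmost, and ALAS12-KO replicate 1 lies within the WT range in some and just below it in others.

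The first hairpins of the cluster gave its most abundant product. miR-379-5p, the miRNA linked to lipid export from hepatocytes, stood at 102, 156 and 96.1 TMM-scaled CPM in WT and at 104, 67.4, 41.8 and 75.8 CPM in ALAS12-KO. ALAS12-KO replicate 1 lay within the WT range, and the other 3 lay below it. Its log2 fold change was −0.71 ± 0.31 (SE; edgeR adjusted p = 0.264). miR-411-5p, its neighbour 1.115 kb downstream, had 53.4, 86.9 and 55.4 CPM in WT and 56.5, 37.0, 21.4 and 42.7 CPM in ALAS12-KO, with the same library overlapping. Its log2 fold change was −0.73 ± 0.33. The miR-299a hairpin, at 1.578 kb, gave 10.99, 17.1 and 9.31 CPM of its 5p arm in WT against 11.2, 4.62, 5.08 and 8.03 CPM in ALAS12-KO (−0.79 ± 0.35). Its 3p arm, with 10.8, 14.8 and 10.1 CPM against 9.41, 6.20, 3.28 and 7.31 CPM, did not overlap between the genotypes (−0.87 ± 0.34, edgeR adjusted p = 0.231).

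The hairpins of the miR-376 family lie close together in the middle of the cluster, with Mir654 between Mir376c and Mir376b, and miR-376b-3p had a log2 fold change further below 0 than the cluster's median. miR-376b has been shown to lower autophagy proteins in other cells. miR-376b-3p stood at 71.9, 121 and 67.4 CPM in WT and at 61.7, 34.4, 20.2 and 36.0 CPM in ALAS12-KO. All 4 ALAS12-KO libraries were below all 3 WT libraries, ALAS12-KO replicate 1 only just. The means were 86.7 ± 29.6 CPM (SD, n = 3) and 38.1 ± 17.3 CPM (SD, n = 4). Its log2 fold change of −1.19 ± 0.37 had an edgeR adjusted p of 0.195. DESeq2 gave 0.0351, edgeR without the low-count filter 0.000452, and edgeR without WT replicate 2 0.471. The other arm, miR-376b-5p, had 10.99, 15.5 and 10.5 CPM in WT and 9.60, 6.65, 4.71 and 5.71 CPM in ALAS12-KO, again without overlap (−0.90 ± 0.28; edgeR adjusted p = 0.197, DESeq2 0.0351).

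The other members of the family were less abundant. miR-376a-3p had 6.04, 12.9 and 4.14 CPM in WT and 6.68, 3.49, 2.06 and 3.15 CPM in ALAS12-KO, with overlap (−1.04 ± 0.48). miR-376c-3p had 3.86, 7.67 and 4.14 CPM against 4.14, 2.59, 2.96 and 4.58 CPM, with overlap (−0.56 ± 0.33). miR-376c-5p was the lowest fold change of the 30, −1.33 ± 0.64, from 9 to 21 reads a library in WT and 7, 1, 1 and 11 reads in ALAS12-KO. At so few reads this value is imprecise, and it cannot be told from that of miR-376b-5p, with which it shares all but 1 base.

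The pair miR-300-3p and miR-381-3p, whose seeds differ at 1 base, were at similar levels. miR-300-3p had 13.3, 20.8 and 13.7 CPM in WT and 14.9, 7.55, 3.54 and 8.56 CPM in ALAS12-KO, where replicate 1 overlapped (−0.89 ± 0.42). miR-381-3p had 9.96, 15.1 and 9.42 CPM against 9.32, 4.40, 3.22 and 6.90 CPM, without overlap by a narrow margin (−0.96 ± 0.37; edgeR adjusted p = 0.231). The hairpins of miR-494 and miR-1193 lie at 6.258 and 6.611 kb. miR-494-3p, which has been studied in vessel growth, had group means of 9.28 ± 3.43 CPM (SD, n = 3) and 5.22 ± 2.33 CPM (SD, n = 4) with overlap. miR-1193-3p had 4.43, 4.53 and 3.22 CPM in WT against 3.01, 2.48, 1.22 and 1.61 CPM in ALAS12-KO. It did not overlap, and WT replicate 2 hardly exceeded replicate 1 for it (−1.01 ± 0.34; edgeR adjusted p = 0.220).

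The hairpins inside the annotated Mirg gene gave the next group. miR-541-5p had 36.7, 53.4 and 29.8 CPM in WT and 29.4, 17.8, 19.0 and 29.5 CPM in ALAS12-KO. The groups did not overlap, but ALAS12-KO replicates 1 and 4 came within less than 1 CPM of WT replicate 3 (−0.74 ± 0.28; edgeR adjusted p = 0.221). miR-154-5p had 21.6, 34.9 and 20.9 CPM against 20.6, 10.3, 7.98 and 16.5 CPM, also without overlap by a narrow margin (−0.90 ± 0.35; edgeR adjusted p = 0.231). miR-134-5p, known from dendritic spines, where it holds back translation of Limk1, had 9.49, 16.1 and 7.70 CPM in WT and 9.89, 7.21, 3.22 and 6.12 CPM in ALAS12-KO (−0.77 ± 0.39). miR-382-5p had 10.8, 18.3 and 9.42 CPM against 11.9, 8.68, 5.82 and 8.44 CPM (−0.57 ± 0.31). miR-409-3p had 8.92, 15.7 and 7.93 CPM against 10.4, 5.97, 2.96 and 7.25 CPM (−0.73 ± 0.41). These last 3 overlapped through ALAS12-KO replicate 1. miR-369-3p had 2.88, 4.30 and 3.68 CPM in WT against 3.01, 1.80, 1.69 and 2.02 CPM in ALAS12-KO, with replicate 1 just above WT replicate 1 (−0.77 ± 0.29; edgeR adjusted p = 0.221).

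Along the cluster the log2 fold changes showed no stretch set apart from the rest. The 17 tested arms of the 11 hairpins upstream of annotated Mirg had a median of −0.89 (from −1.33 to −0.27), and the 13 arms of the 9 hairpins inside it a median of −0.77 (from −1.17 to −0.17). The 2 values nearest 0 were those of the scarce arms miR-382-3p (−0.17 ± 0.39) and miR-411-3p (−0.27 ± 0.51), both of which were above 0 without WT replicate 2 (0.017 and 0.13).

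**Figure D3:**
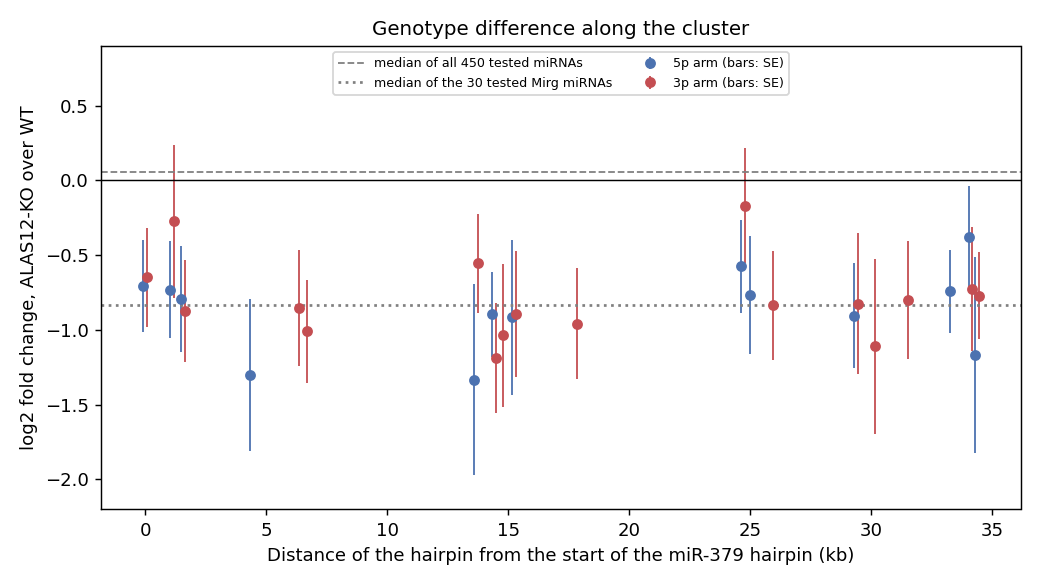
Log2 fold change (ALAS12-KO over WT, bars SE) of the 30 tested Mirg miRNAs against the distance of their hairpin from the start of the miR-379 hairpin, in kb. All points are below 0, around their median of −0.83, with no trend by eye from one end of the cluster to the other.

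The levels differed far more from hairpin to hairpin than between the genotypes. Each read stands for a whole mature miRNA, so levels need no length scaling, although ligation is known to favour some sequences. Over the 7 libraries the cluster had 40364 reads, of which the miR-379 hairpin took 25.0%, miR-376b 18.5%, miR-411 13.6%, miR-541 8.53% and miR-154 5.41%. Next came miR-299a with 4.93% and miR-300 with 3.32%. At the other end, 17 of the 37 hairpins had no tested arm. Hairpins given here for their low reads were chosen after their values were seen. At the 3′ end of the cluster miR-409 (at 34.098 kb), miR-412 (34.229 kb), miR-369 (34.358 kb) and miR-410 (34.655 kb) lie within less than 1 kb and had 1135, 7, 410 and 8 reads in all. miR-410 thus held 0.0198% of the cluster's reads, although it is among the better known members in neurons and pancreatic islets. miR-380 and miR-323, downstream of miR-299a, had 59 and 9 reads. miR-495 and miR-543 had 45 and 69, miR-487b had 27, and miR-539 had 3. For the 7 rows with no read, a count of 0 allows up to 0.0293 CPM over the 7 libraries, a limit for counting error only.

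The first base of a mature miRNA is known to bear on its loading into Argonaute. Of the 70 rows with a sequence, 30 begin with U, 25 with A, 11 with G and 4 with C. The filter was passed by 15 of those with U, 10 of those with A, 4 of those with G and 0 of those with C. miR-541-5p, miR-376b-3p and the nearly absent miR-410-3p all begin with A.

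Within the cluster's own reads the makeup was alike in the 7 libraries, with 1 larger difference. The 3 most abundant arms took 50.0% to 56.4% of the cluster's reads and the first 12 took 83.4% to 86.9%. These shares depend on no scaling between libraries. miR-376b-3p took 17.1%, 18.0% and 17.1% of them in WT and 15.1%, 14.0%, 12.1% and 12.2% in ALAS12-KO. Its means were 17.4% ± 0.531 (SD, n = 3) and 13.3% ± 1.47 (SD, n = 4), so this arm was lower relative to the rest of the cluster too. The other arm of its hairpin, miR-376b-5p, overlapped between the genotypes. It took 2.61%, 2.31% and 2.65% in WT against 2.35%, 2.71%, 2.82% and 1.93% in ALAS12-KO. miR-379-5p took 24.1%, 23.2% and 24.4% in WT against 25.4%, 27.4%, 25.1% and 25.6% in ALAS12-KO. miR-382-5p took 2.57%, 2.72% and 2.39% against 2.91%, 3.53%, 3.49% and 2.85%. miR-376b-3p, miR-379-5p and miR-382-5p were the 3 of the 30 tested Mirg miRNAs (10.0%) whose shares did not overlap between the genotypes. A share of the cluster's reads is not defined for other miRNAs, so this count has no background, and the shares were not tested. The shares add up to a whole, so a lower share of 1 member raises those of the others. For miR-541-5p the shares of 7.20% to 11.4% in ALAS12-KO lay on both sides of the WT shares of 7.56% to 8.71%.

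The balance of the 2 arms was measured for the 10 hairpins with both arms tested, as the log2 of minor-arm over major-arm reads. The major arm was the 5p arm for 5 of them and the 3p arm for the other 5. limma called 0 of these 10, and 0 of the 130 hairpins tested in all (0%); unadjusted p was under 0.05 for 0 of the 10 and for 7 of the 130 (5.38%). In miR-376b, the reads of the minor 5p arm came to 15.3%, 12.8% and 15.5% of the major 3p arm in WT and to 15.6%, 19.3%, 23.3% and 15.9% in ALAS12-KO. The groups did not overlap, though ALAS12-KO replicate 1 and WT replicate 3 were nearly equal. How many of the 130 hairpins did not overlap was not counted, so this separation has no background to be set against. The log2 ratio differed by 0.34 ± 0.19 (SE; limma adjusted p = 0.717). The hairpin (chr12:109723458-109723539, plus strand, GRCm38.p6) is shown with both mature arms in capitals, the 5p arm first.
miR-376b hairpin: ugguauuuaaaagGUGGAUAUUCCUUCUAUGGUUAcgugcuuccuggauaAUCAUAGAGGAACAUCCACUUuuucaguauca

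The other hairpins overlapped between the genotypes. miR-299a used both arms about equally: reads of its 3p arm came to 98.4%, 86.4% and 109% of the 5p arm in WT and to 84.0%, 134%, 64.6% and 91.1% in ALAS12-KO. Among the 10 hairpins with both arms tested, miR-379 and miR-411 were the most one-sided. Their 3p arms came to 1.82% to 3.67% and to 0.915% to 2.83% of the 5p arm over the 7 libraries. Hairpins whose minor arm failed the filter are left out of this ranking, such as miR-541, with 28 reads of its 3p arm and 3414 of its 5p arm. In miR-154 the 3p arm came to 3.30% to 7.28% of the 5p arm, and in miR-382 to 3.90% to 10.6%. The minor 5p arm came to 2.53% to 12.5% of the 3p arm in miR-300 and to 16.6% to 46.4% in miR-409. On the log2 scale the widest spread was in the scarce arms miR-376c-5p (1.79% to 25.0% of the 3p arm; difference of the log2 ratio −1.28 ± 0.67, limma adjusted p = 0.702) and miR-369-5p (0% to 55.2%), which had no read in ALAS12-KO replicate 2, while elsewhere it had 10 to 53.

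**Figure D4:**
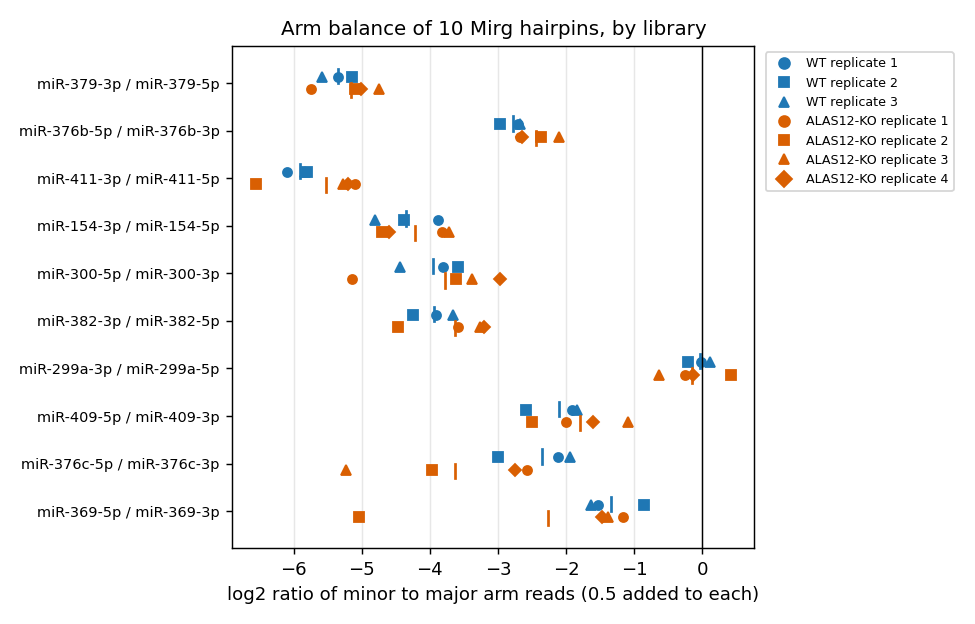
Log2 ratio of minor to major arm reads (0.5 added to each) for the 10 Mirg hairpins with both arms tested, by library; short vertical lines are group means. The miR-299a ratios lie around 0 and those of miR-379 and miR-411 at about −5 or below. The genotypes overlap for every hairpin except miR-376b, where ALAS12-KO replicate 1 and WT replicate 3 nearly coincide.

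The remaining miRNAs of the imprinted locus, upstream in Meg3, in the transcript antisense to Rtl1 and in Rian, had 33 rows, of which 11 were tested. All 11 had a negative log2 fold change, with a median of −0.999 (from −1.42 to −0.63), beside the −0.83 of the Mirg miRNAs and the 0.06 of all tested miRNAs. None passed the adjusted edgeR threshold (0 of 11; 7 at unadjusted p under 0.05, lower in ALAS12-KO, as were 8.44% of all tested miRNAs). Summed on library totals they stood at 74.6, 120 and 67.9 CPM in WT and at 54.8, 31.1, 28.03 and 49.7 CPM in ALAS12-KO. WT replicate 2 was thus the highest and ALAS12-KO replicate 3 the lowest, as for the Mirg miRNAs. With TMM scaling the groups overlapped here too, with ALAS12-KO replicate 1 at 68.0 CPM and WT replicate 3 at 60.2 CPM. All ALAS12-KO libraries lay below all WT libraries for 3 of the 11, against 9.33% of all tested miRNAs.

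Summed markers of other liver cells also had lower means in ALAS12-KO, and their part in the lower Mirg level was not tested. Sums are on library totals. Endothelial markers (both arms of miR-126a) ran from 35562 to 52472 CPM in WT and from 10959 to 36485 CPM in ALAS12-KO, and 2 of 2 had negative fold changes. Mesenchymal markers, led by miR-143-3p, ran from 4593 to 7702 CPM and from 1719 to 6311 CPM, with 10 of 11 negative. Leukocyte markers, led by miR-142a-3p, ran from 8184 to 10996 CPM and from 3004 to 9982 CPM, with 10 of 10 negative. Bile duct markers, led by miR-200a-3p, ran from 140 to 243 CPM and from 54.6 to 107 CPM, with 5 of 6 negative, and red cell markers, led by miR-451a, from 20.9 to 27.6 CPM and from 9.19 to 20.8 CPM, with 4 of 4 negative. Neural markers, led by miR-219a-5p, ran from 126 to 152 CPM and from 139 to 148 CPM, with 3 of 5 negative. Hepatocyte markers had negative fold changes for 1 of 17. Over all lists 0 tested members passed the adjusted edgeR threshold. The lowest ALAS12-KO sums of the endothelial, mesenchymal, leukocyte, bile duct and red cell markers were those of replicate 1. Without it the lowest were 25490, 3852, 6542, 76.7 and 13.8 CPM in that order, and the highest stayed the same. One row each of the bile duct, red cell and neural lists was at 0 in every library. Bile duct and red cell sums did not overlap between the genotypes, as the Mirg sum on library totals did not, while the endothelial, mesenchymal, leukocyte and neural sums did. WT replicate 2, the highest library for the Mirg sum, was the highest for red cell markers and the lowest of the WT libraries for endothelial and mesenchymal markers. ALAS12-KO replicate 1, the highest of its group for the Mirg sum, was the lowest of the 7 for endothelial, mesenchymal, leukocyte, bile duct and red cell markers.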

How the data were processed

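For each of the 7 libraries the authors deposited raw counts of reads by mature miRNA, unnormalised, judging by the values. The submitters' processing notes name cutadapt, limma, mm10 and hg38 without their roles. The aligner, the counter and the annotation were not given in the sources used here. Summary entries that name no miRNA entered neither library sizes nor tests; of all counted reads, 50.9% to 73.7% had no feature and 4.54% to 8.00% were unaligned. Spike-in RNAs were not analysed here, so levels are relative to all miRNAs.

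Counts were compared as ALAS12-KO against WT with edgeR 4.0.16 in R 4.3.3 (robust quasi-likelihood fit, TMM scaling, minimum count of 10 in filterByExpr, Benjamini-Hochberg adjustment over all 450 tested miRNAs, threshold 0.05). Values are TMM-scaled CPM unless said to be on library totals. A standard error is the log2 fold change divided by the square root of F. Arm ratios (0.5 added to each arm) were tested with limma 3.58.1 over all hairpins with both arms past the filter. The edgeR script was tested on simulated data. Alternatives were DESeq2 1.42.0, limma-voom, other scalings and filters, a block for the replicate number, and fits that each lack 1 library. The number of members whose groups did not overlap was also taken on library totals and without each library, and again without miRNAs past the filter level in fewer than 3 ALAS12-KO libraries, which was chosen after seeing the data. Named were the 12 most abundant tested Mirg miRNAs, the 8 with the lowest p, and the leading member of each seed group. Both arms of hairpins with both tested and the leading marker of each list were named too. The members miR-376a-3p, miR-494-3p and miR-496a-3p and the hairpins with few reads fall outside this rule and were chosen after their values were seen. The members and lists were chosen with earlier results of these data known. No pair of libraries of 1 group agreed within sampling noise (112 to 1288 for chi-square over its degrees of freedom). Sequences are from RefSeq (GRCm38.p6), and gene models from GENCODE M21 (GRCm38, which mm10 matches).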

Additional observations from a re-analysis of the deposited data

Results flagged for a closer look

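Among 35 measures taken over the 4 ALAS12-KO libraries, 2 had a single library well away from the remaining 3; by chance alone about 1.75 (1 in 20) would. Both were log2 arm ratios with ALAS12-KO replicate 2 at the bottom. Its distance from the next library made up 0.923 of the spread for miR-369 and 0.883 for miR-411. In this library miR-369-5p had 0 reads and miR-411-3p 3 reads, so both ratios rest on very few reads.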

How the results depend on the processing

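The 24 named Mirg miRNAs gave 336 values under the alternatives, 334 negative and 2 positive. The positive ones were miR-411-3p (0.13) and miR-382-3p (0.017) without WT replicate 2; with 1 library left out these ran from −0.65 to 0.13 and from −0.36 to 0.017. The number of Mirg miRNAs past the adjusted threshold was 0 with edgeR and limma-voom under every alternative except edgeR without the filter (1, miR-376b-3p), and 2 with DESeq2, where 7 had no adjusted p. Over all miRNAs it was 2 with library totals, 13 without the filter and 22 with DESeq2, and 0 to 1 when a library was left out. The number at unadjusted p under 0.05 was 11 (8.44% of all tested miRNAs, counted in the same direction), and was 21 with library totals (12.4%), 28 of 67 without the filter (5.53%), 7 of 7 with a mean CPM of at least 10 (13.5%), 18 with limma-voom (10.2%) and 0 to 24 when a library was left out (2.84% to 12.6%). The number whose groups did not overlap was 8 (9.33% of all tested miRNAs). It was 21 on library totals (15.3%) and 8 to 22 when a library was left out (11.8% to 13.6%), both added after seeing the data. The median log2 fold change ran from −1.07 to −0.50 over all alternatives, the latter without WT replicate 2. The Mirg share of miRNA reads, 0.0528% in WT and 0.0258% in ALAS12-KO, was 0.0175% and 0.00885% of all counted reads, and 0.126% and 0.0620% of miRNA reads without miR-122-5p; these follow from the denominators. The ratio of WT to ALAS12-KO ran from 1.74 to 2.25 over the alternatives. Same-numbered libraries of the 2 genotypes did not deviate together (correlation of deviations −0.03, −0.47 and 0.01 for replicates 1 to 3). No WT library correlated best with the ALAS12-KO library of its own number. The highest correlations were 0.53, of WT replicate 3 with ALAS12-KO replicate 2, and 0.38, of WT replicate 2 with ALAS12-KO replicate 4. These values gave no sign of pairing by number, but with so few libraries they cannot exclude it. With the replicate block 10 Mirg miRNAs had an unadjusted p under 0.05 (7.33% of all), 0 passed, and the median was −0.85. ALAS12-KO replicate 4 has no WT library of its number, so with the block it adds nothing to the estimated genotype difference. The arm difference of miR-154, for example, was 0.27 both with the block and without that library. In the arm balance 0 hairpins passed under any alternative. With 5 added to each arm 1 of the 10 had an unadjusted limma p under 0.05, and 0 to 2 did when a library was left out. For these fits the count over all hairpins was not taken, so these numbers have no background to be set against. No Mirg hairpin had both arms at a mean CPM of 10. The difference of the log2 arm ratio changed sign for miR-300 with the replicate block (−0.097) and without WT replicate 3 (−0.074), for miR-154 without WT replicate 3 (−0.082) or ALAS12-KO replicate 3 (−0.019), for miR-369 without ALAS12-KO replicate 2 (0.00080), and for miR-299a without ALAS12-KO replicate 3 (0.050). With 1 library left out these ran from −0.074 to 0.63 for miR-300, −0.082 to 0.38 for miR-154, −1.29 to 0.00080 for miR-369 and −0.30 to 0.050 for miR-299a. The cause was not tested. Depth limits the 44 untested rows most, with at most 61 reads in all.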
